A study of Mus musculus with 2 samples.

Results

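The 9 miRNA genes described here form 2 clusters that each yield several miRNAs from 1 transcript. The miR-17-92 cluster on chromosome 14 holds Mir17, Mir18, Mir19a, Mir20a, Mir19b-1 and Mir92-1. The cluster inside the Mcm7 gene on chromosome 5 holds Mir106b, Mir93 and Mir25. They were chosen by genomic position and gene name, with earlier results of these data known, and all 9 have an entry among the 1973 miRNA genes of the deposited tables. MicroRNA-seq of total RNA, with inserts under 30 nucleotides, was done on mouse hindbrain (strain B6NCrl, postnatal, age 0 day). There was 1 group of 2 libraries, replicate 1 from the hindbrain of pup 1 and replicate 2 from that of pup 3. Both pups carry 1 shared donor identifier in the labels, which state no genotype, treatment or sex. The p-values set the difference between these 2 libraries against counting error alone, and that difference may be technical. No contrast of conditions was possible, and a level in bulk tissue does not tell more cells of a type from more RNA per cell.

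A miRNA gene is transcribed as part of a longer RNA, from which the enzymes Drosha and Dicer cut a hairpin precursor and then a short duplex. The arm that Argonaute mostly retains is called the guide here, and its bases 2 to 8, the seed, pair with target messages. The miR-17-92 transcript is induced by Myc and E2F factors and favours cell division and survival in many tissues. In the developing brain it is known for promoting the expansion of neural progenitors. The cluster in Mcm7, a subunit of the helicase that opens DNA for replication, is a paralog of it that arose by duplication, as is a cluster on the X chromosome.

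The own-strand total over all miRNA genes was 4906127 counts for pup 1 and 6238680 for pup 3. Levels are given as CPM, counts per 1000000 of that sum. Each read is 1 whole small RNA, so the CPM carry no correction for length, but capture of one sequence against another differs in such libraries and was not tested. Intervals cover counting error only. Of the marker lists, Mir10a and Mir10b of the Hox clusters, which mark hindbrain and spinal cord, had 32189 and 19914 CPM in pup 1, against 24602 and 10051 in pup 3. Of the 6 Hox-linked genes 5 were detected, at 2 CPM or more in both pups. Summed levels were 47819 and 55787 CPM for the endothelial Mir126a, 498 and 308 CPM for 3 erythroid genes, and 842 and 597 CPM for 3 leukocyte genes. The erythroid sum follows Mir451a (461 and 258 CPM), while Mir144 had 16.1 and 27.7 CPM. Of 4 muscle genes 3 had 0 counts in both pups. Reads that match several genomic places count for no gene, and copies of the marker guides were not searched for. A low or 0 count of a marker is therefore uncertain as a level.

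The 6 precursors of the chromosome 14 cluster lay within 836 bases on the plus strand, and the 3 in Mcm7 within 498 bases on the minus strand (coordinates on GRCm38, the assembly of mm10). In order of transcription Mir17 is at chr14:115043671-115043754, Mir18 at chr14:115043851-115043946 and Mir19a at chr14:115044000-115044081. Mir20a follows at chr14:115044157-115044263, Mir19b-1 at chr14:115044305-115044391 and Mir92-1 at chr14:115044427-115044506. All 6 lie over an exon of the single annotated transcript of Mir17hg, a noncoding RNA gene of 3849 bases. On the minus strand of chromosome 5, Mir106b at chr5:138165737-138165818 comes first, then Mir93 at chr5:138165523-138165610 and Mir25 at chr5:138165321-138165404. Each of these lies in an intron of 2 of the 10 annotated Mcm7 transcripts. Mir93 and Mir25 are also covered by 1 Mcm7 transcript of the retained intron class, so "in an intron" holds for the spliced forms.

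The guide arms fall into 4 groups by seed, and the sequences are shown because the seed decides which members share targets (RefSeq, GRCm38.p6, 5′ to 3′, seed in capitals). All 9 members matched an entry by symbol. The miR-17 group holds 4 members, 2 from each cluster, and the miR-92 group 1 member from each. The miR-18 group has Mir18, and the miR-19 group has Mir19a and Mir19b-1.
miR-17-5p (Mir17): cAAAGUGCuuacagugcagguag
miR-20a-5p (Mir20a): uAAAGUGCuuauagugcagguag
miR-93-5p (Mir93): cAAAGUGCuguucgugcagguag
miR-106b-5p (Mir106b): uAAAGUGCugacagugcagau
miR-18a-5p (Mir18): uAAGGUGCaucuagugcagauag
miR-19a-3p (Mir19a): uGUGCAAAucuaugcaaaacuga
miR-19b-3p (Mir19b-1): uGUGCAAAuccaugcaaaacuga
miR-92a-3p (Mir92-1): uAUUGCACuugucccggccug
miR-25-3p (Mir25): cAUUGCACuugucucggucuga

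Counted from 1 at the 5′ end, the miR-17 and miR-20a guides differ by C1U and C12U, outside the seed. The miR-17 and miR-106b guides differ at 3 of the 21 positions compared (C1U, U10G and G20A), and miR-17 and miR-93 at 4 of 23, all between positions 10 and 13. The miR-18a guide differs from miR-17 at 6 of 23 positions, and A4G among them changes the seed. The miR-19a and miR-19b guides differ by U11C alone, and miR-92a and miR-25 by U1C, C14U and C18U over 21 positions. The guides ran from 34.8% GC for miR-19a to 57.1% for miR-92a.

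Reads that match several genomic places were given to no gene in the deposited tables, 37.9% of reads in pup 1 and 39.4% in pup 3, and this bears at least on 2 members. The guides of Mir19b-1 and Mir92-1 occur letter for letter in Mir19b-2 and Mir92-2 of the X chromosome cluster. These precursors are shown with the stretch shared by each pair in capitals, 25 bases for the first pair and 22 for the second, which spans the whole guide.
Mir19b-1: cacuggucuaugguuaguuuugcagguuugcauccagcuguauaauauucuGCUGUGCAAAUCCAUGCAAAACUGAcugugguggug
Mir19b-2: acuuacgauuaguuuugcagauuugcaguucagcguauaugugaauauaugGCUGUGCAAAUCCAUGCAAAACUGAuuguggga
Mir92-1: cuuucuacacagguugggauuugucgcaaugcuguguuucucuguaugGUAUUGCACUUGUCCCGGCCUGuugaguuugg
Mir92-2: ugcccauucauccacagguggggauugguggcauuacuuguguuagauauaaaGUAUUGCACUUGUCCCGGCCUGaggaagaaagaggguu
A read that stays within the capitals matches both genes of its pair, so the counts of Mir19b-1 and Mir92-1 leave such reads out and are uncertain as levels. The other 7 members share at most 17 bases in a row with any other precursor of the RefSeq table, and none of their guides occurs in another precursor. How many mismatches the alignment allowed is not given in the sources used here, and copies of the guides outside these precursors and the annotated transcripts were not searched. Whether reads of guides that differ by 1 base, as miR-19a and miR-19b do, were left out too was not tested.

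All 9 members were detected at 2 CPM in both pups, against a background of 20.6% of the 1973 genes (407 genes). Together they took 2.92% of own-strand counts in pup 1 and 2.53% in pup 3. Their median level was 1984 CPM, beside 178 CPM over all detected genes. The chromosome 14 cluster summed to 1.89% of counts in pup 1 (exact Clopper-Pearson 95% interval 1.88 to 1.91) and 1.51% in pup 3 (1.501 to 1.520), a mean of 1.70% ± 0.272 (SD, n = 2). The Mcm7 cluster summed to 1.03% (1.02 to 1.03) and 1.02% (1.013 to 1.028), a mean of 1.02% ± 0.00319. The chromosome 14 cluster thus had 1.85 times the counts of the Mcm7 cluster in pup 1 and 1.48 times in pup 3. Its sums leave out the reads that Mir19b-1 and Mir92-1 share with their X chromosome copies. The Mcm7 sum was nearly level between the pups while the chromosome 14 sum was lower in pup 3, by counts scaled to library totals. On TMM scaling, used for the comparison of the pups further on, the log2 difference of pup 3 minus pup 1 was 0.13 for the Mcm7 sum and -0.19 for the chromosome 14 sum.

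Mir17, the first precursor of its transcript and the founding member of the miR-17 seed group, was the most abundant of the 9. It had 54553 counts or 11119 CPM in pup 1 and 51427 counts or 8243 CPM in pup 3, and ranked 23 of all genes by mean CPM. Mir20a, with the same seed, had 4267 CPM in pup 1, against 3741 in pup 3. Mir17 thus exceeded Mir20a in both pups, by 2.61 times in pup 1 and 2.20 times in pup 3, although both come from the same transcript. Mir18, whose seed differs from that of miR-17 by 1 base, had 2028 CPM in pup 1, against 1940 in pup 3, the smallest SD for its mean of the 9 (1984 ± 62.3 CPM). Mir92-1 had 1486 CPM and 1132 CPM, counted without the reads it shares with Mir92-2. Values of Mir17, Mir20a, Mir18 and Mir92-1 did not overlap between these genes in either pup.

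The 2 members of the miR-19 group, known as the most oncogenic part of the cluster in Myc-driven lymphoma, had the lowest counts. Mir19a had 164 counts or 33.4 CPM in pup 1 and 257 counts or 41.2 CPM in pup 3. Mir19b-1 had 60 counts or 12.2 CPM in pup 1 and 52 counts or 8.34 CPM in pup 3. Mir17 had 333 times the counts of Mir19a in pup 1 and 200.1 times in pup 3, and 909 and 989 times those of Mir19b-1. For Mir19b-1 the reads it shares with Mir19b-2 are left out. No such exact copy of the Mir19a guide was found in the precursors of the RefSeq table or, apart from its own host Mir17hg, in the annotated GENCODE M21 transcripts. Mir19a lies between Mir18 and Mir20a, which had 1984 ± 62.3 and 4004 ± 372 CPM, so low counts did not follow the order along the transcript.

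**Figure D1:**
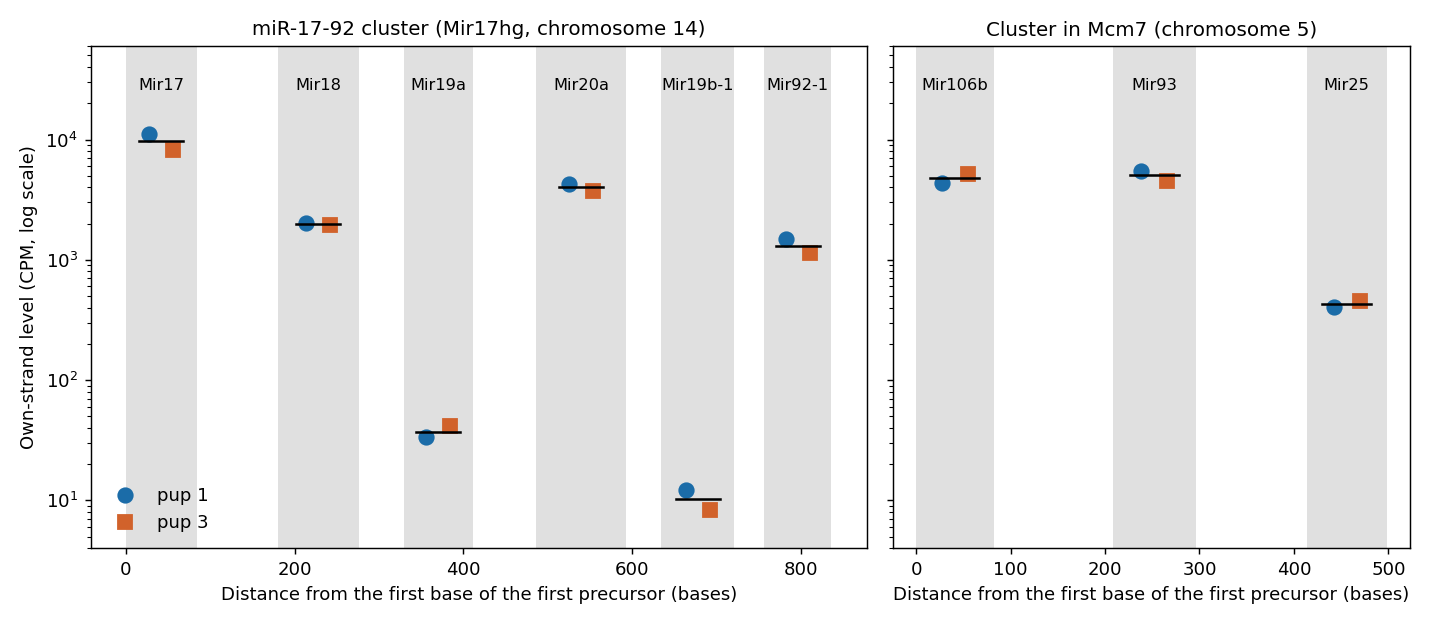
Level of each member in CPM (log scale) against the distance in bases from the first precursor of its cluster, in the direction of transcription. Grey bands are the precursors to scale, circles are pup 1, squares pup 3 and black lines the mean of both. Mir19a and Mir19b-1, at 37.3 and 10.3 CPM on average, lie far under their neighbours, and Mir25 under Mir106b and Mir93.

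In the Mcm7 cluster, Mir106b and Mir93 carried nearly all of the counts. Mir106b, the first precursor, had 4335 CPM in pup 1, against 5202 in pup 3. Mir93 had 5508 CPM in pup 1, against 4552 in pup 3. Their order differed between the pups: Mir93 had 1.27 times the counts of Mir106b in pup 1 and 0.875 times in pup 3. Mir25, of the miR-92 seed group, had 407 CPM in pup 1, against 451 in pup 3. It was under Mir93 and Mir106b in both pups, and Mir106b exceeded it 10.6 times in pup 1 and 11.5 times in pup 3.

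By mean level the order was Mir17 (9681 ± 2034 CPM), Mir93 (5030 ± 676), Mir106b (4768 ± 613), Mir20a (4004 ± 372), Mir18, Mir92-1 (1309 ± 251), Mir25 (429 ± 31.1), Mir19a (37.3 ± 5.49) and Mir19b-1 (10.3 ± 2.75). Mir93 and Mir106b did not differ beyond the spread between pups. The values of Mir106b and Mir20a came within 68 CPM of overlap, less than the SD of either. The other neighbours were in the same order in both pups.

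Within each cluster, the share of each member gives its level free of the scaling of the library. For chromosome 14 the shares are of a total without the reads that Mir19b-1 and Mir92-1 share with X chromosome copies. Mir17 made up 58.7% of the chromosome 14 counts in pup 1 (exact Clopper-Pearson 95% interval 58.4 to 59.0) and 54.6% in pup 3 (54.3 to 54.9). Mir20a made up 22.5% (22.3 to 22.8) and 24.8% (24.49 to 25.04), and Mir18 10.7% (10.5 to 10.9) and 12.8% (12.6 to 13.1). Mir92-1 took 7.84% (7.67 to 8.02) and 7.49% (7.32 to 7.66). Mir17 had the lower share in pup 3 and Mir20a and Mir18 the higher, beyond counting error in each case. Mir19a took 0.176% (0.150 to 0.206) and 0.273% (0.240 to 0.308), while the intervals of Mir19b-1 overlapped, at 0.0646% (0.0493 to 0.0831) and 0.0552% (0.0412 to 0.0724). In the Mcm7 cluster Mir106b made up 42.3% (41.9 to 42.7) in pup 1 and 51.0% (50.6 to 51.4) in pup 3. Mir93 made up 53.7% (53.3 to 54.2) and 44.6% (44.22 to 44.99), and Mir25 3.97% (3.80 to 4.15) and 4.42% (4.26 to 4.58). The opposite shifts of Mir106b and Mir93 were the largest shifts of share in either cluster. Shares within a cluster are bound to a fixed sum, so a higher share of Mir106b forces lower shares elsewhere. On TMM scaling the log2 differences of pup 3 minus pup 1 were unequal, 0.40 for Mir106b and -0.14 for Mir93.

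By seed, the miR-17 group, which targets the cell cycle inhibitor p21 among others, took most of the counts of both clusters. Its 2 members took 81.2% of the chromosome 14 counts in pup 1 and 79.3% in pup 3, and in the Mcm7 cluster its 2 members took 96.0% and 95.6%. Summed over both clusters, the 4 members had 25229 CPM in pup 1, against 21738 in pup 3. The miR-92 group had 1894 CPM and 1583 CPM in the 2 members, the miR-18 group 2028 and 1940 CPM, and the miR-19 group 45.7 and 49.5 CPM. The miR-92 and miR-19 sums leave out the reads that Mir92-1 and Mir19b-1 share with their X chromosome copies. So does the chromosome 14 total, which makes the miR-17 share of that cluster uncertain.

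**Figure D2:**
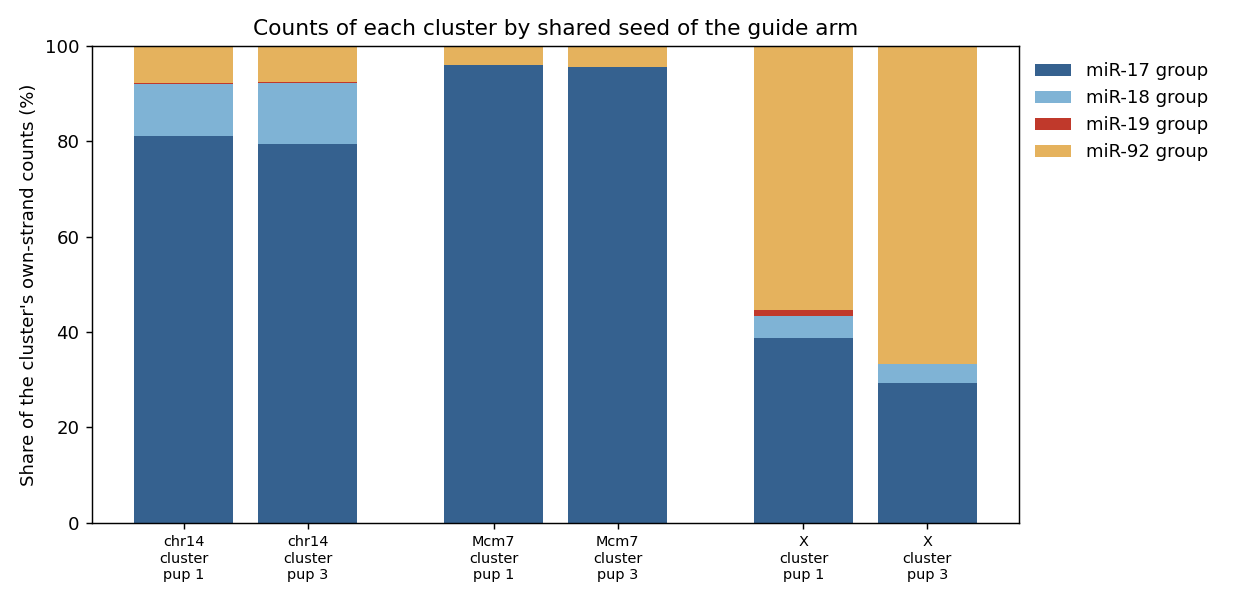
Share of own-strand counts in percent (bars from 0 to 100) that each seed group took of the chromosome 14 cluster, the Mcm7 cluster and the paralogous X chromosome cluster, in pup 1 and pup 3. The miR-17 group fills 79.3% to 81.2% of the chromosome 14 bars and 95.6% to 96.0% of the Mcm7 bars. It fills under 39% of the X bars, where the miR-92 group is the largest. Reads shared by the chromosome 14 and X clusters are in neither.

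By these counts, genes outside the 2 clusters add little to the miR-17 seed group and much to the miR-92 seed group. For the miR-92 group the proportion is uncertain, since reads shared by Mir92-1 and Mir92-2 are in neither count. Their guides are shown because they carry the seeds of the members (RefSeq, seed in capitals).
miR-106a-5p (Mir106a): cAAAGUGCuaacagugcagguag
miR-20b-5p (Mir20b): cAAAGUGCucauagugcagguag
miR-18b-5p (Mir18b): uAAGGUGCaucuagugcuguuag
miR-92b-3p (Mir92b): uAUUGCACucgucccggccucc
miR-363-3p (Mir363): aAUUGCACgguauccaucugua
miR-32-5p (Mir32): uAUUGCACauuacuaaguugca
The X chromosome cluster, a duplicate of the chromosome 14 cluster with 6 genes, summed to 427 CPM in pup 1, against 355 in pup 3, and 5 of its 6 genes were detected. Its Mir106a had 90.1 and 58.0 CPM, its Mir20b 75.2 and 45.8 CPM and its Mir18b 19.8 and 13.9 CPM. The miR-17 and miR-106a guides differ by U10A alone, yet Mir17 had 123 times the counts of Mir106a in pup 1 and 142 times in pup 3. Whether reads of guides 1 base apart were left out was not tested, so this ratio is uncertain. Mir20a had 56.7 and 81.6 times the counts of Mir20b, and Mir18 102.6 and 139 times those of Mir18b.

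For the 2 pairs with identical guides, counts rest on reads that reach past the shared stretch or come from elsewhere in the precursor. Mir92-1 had 28.8 times the counts of Mir92-2 in pup 1 and 26.5 times in pup 3, the latter gene standing at 51.6 and 42.6 CPM. Mir19b-2 had 26 counts in pup 1 and 4 in pup 3 and was not detected. Mir363, the last X cluster precursor, whose guide occurs in no other precursor of the table, had 185 and 194 CPM. Mir92b, a separate gene on chromosome 3 known for its expression in neural progenitors, had 4004 CPM in pup 1, against 3108 in pup 3. That was 2.69 and 2.75 times Mir92-1, whose counts leave out the reads it shares with Mir92-2. Mir32 had 168 and 281 CPM. In all, 7 genes with the miR-92 seed had an entry, 6 were detected, and they summed to 6301 CPM in pup 1, against 5208 in pup 3. Of the 7 entries with the miR-17 seed 6 were detected, and the 4 members made up all but 165 and 104 CPM of their sum. The 2 entries that complete these groups had 0 counts in both pups.

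No member differed by 2-fold between the pups. The comparison used an exact binomial test on the 2 counts of each gene, two-sided, with Benjamini-Hochberg adjustment over 508 tested genes. It scaled by TMM effective library sizes (1.16, pup 3 over pup 1), and it compares 2 libraries, not conditions. With a call set at 2-fold and an adjusted p under 0.05, it called 0 of the 9 members, beside 6.69% of tested genes (0.984% higher and 5.71% lower in pup 3). At any fold 8 of the 9 passed, 4 higher and 4 lower in pup 3, beside 47.6% of tested genes, 23.8% in each direction (8 members also had an unadjusted p under 0.05). Genes with more counts pass more readily, since the test knows counting error alone: of 317 genes with 100 or more counts 224 passed. The directions depend on scaling. On library totals 2 members passed as higher and 5 as lower (87 and 192 of all genes), and on DESeq2 size factors 5 and 3 (146 and 96), beside 121 and 121 of all genes on TMM. The median size of the log2 difference was 0.29 for the members and 0.27 for all detected genes.

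Log2 differences are pup 3 minus pup 1 on TMM scaling after adding 1 CPM to each level, and the SE is the counting error. Mir19a and Mir106b had the largest differences toward pup 3, at 0.43 (SE 0.14, exact binomial test, adjusted p = 0.00567) and 0.40 (SE 0.013, exact binomial test, adjusted p = 2.02e-220). Mir25 was also higher in pup 3, at 0.29 (SE 0.042, exact binomial test, adjusted p = 3.48e-11). Mir17 was lower, at -0.29 (SE 0.0089, exact binomial test, adjusted p = 4.56e-239), as were Mir92-1 at -0.25 (SE 0.024, exact binomial test, adjusted p = 1.92e-25) and Mir93 at -0.14 (SE 0.012, exact binomial test, adjusted p = 4.66e-28). Mir18 at 0.07 and Mir20a at -0.05 differed little, though they passed (exact binomial test, adjusted p = 3.80e-04 and 4.60e-04), and their signs depend on scaling: Mir18 was -0.064 on library totals and Mir20a 0.039 on DESeq2 size factors. Mir19b-1, at -0.38 with a counting SE of 0.27, did not pass (exact binomial test, adjusted p = 0.216). On library totals, which shift the differences of detected genes by a median of -0.14, Mir19a did not pass either (0.29, exact binomial test, adjusted p = 0.0695). On these totals Mir92-1 stood at -0.39, Mir93 at -0.27, Mir106b at 0.26 and Mir25 at 0.15, and on DESeq2 size factors Mir92-1 stood at -0.16 and Mir93 at -0.046.

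Across the 413 genes kept for the estimate, the pups varied with a biological coefficient of variation of 0.232 (edgeR, common dispersion). Such a spread gives a log2 difference of 2 pups an SD of 0.47, and all 9 members differed by less than that on TMM scaling. Exceptions on other scalings were Mir19a (0.52) and Mir106b (0.49) on DESeq2 size factors and Mir19b-1 (-0.50) on library totals. Of the 407 detected genes, 124 had a larger difference in size than Mir19a, the member that differed most, and 371 a larger one than Mir20a, which differed least. Beside the lower Mir17 of pup 3 stood lower summed CPM of the Hox-linked markers (52557 in pup 1, 34978 in pup 3) and of the leukocyte markers. On TMM scaling 1 of the 3 leukocyte genes was higher. Sums of choroid plexus and multiciliated markers (18754 and 16987 CPM) and of neuron markers (17662 and 16889 CPM) were also lower in pup 3. Epithelial markers (169 and 201 CPM) and endothelial Mir126a were higher. These marker sums are on library totals, which shift the log2 differences of detected genes by a median of -0.14 from TMM scaling. On TMM scaling 3 of the 6 neuron genes and 1 of the 3 choroid plexus and multiciliated genes were higher in pup 3. The directions of these 2 sums therefore depend on scaling. The part of these cell types in the differences was not tested.

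**Figure D3:**
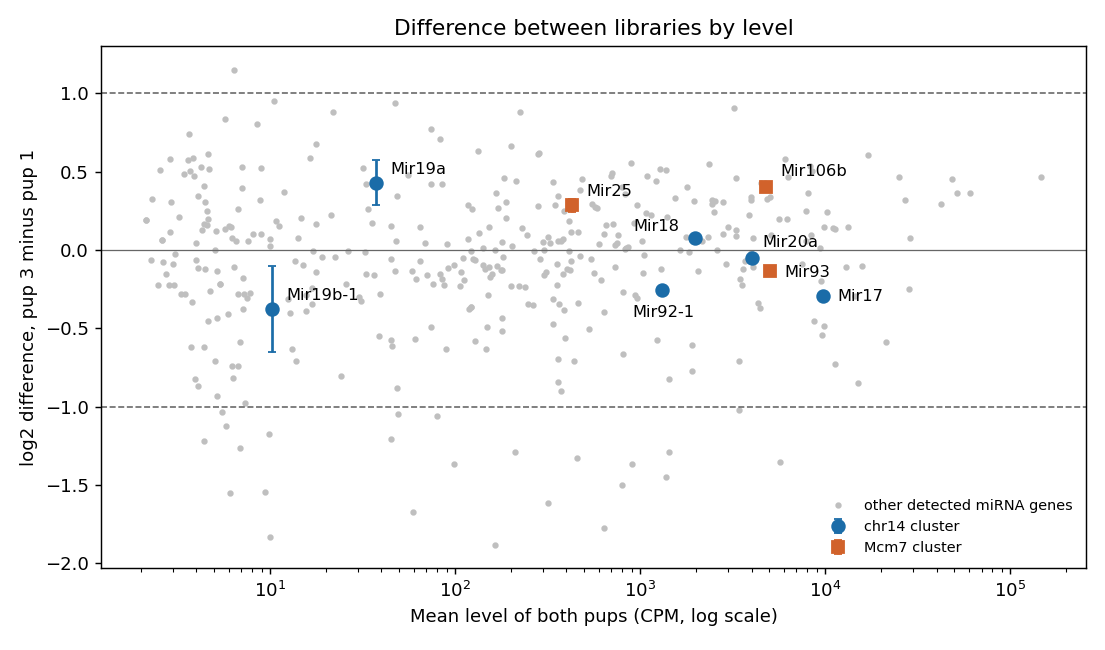
Log2 difference of pup 3 minus pup 1 against the mean level in CPM (log scale) for the members, with bars of 1 counting SE, and for the other detected miRNA genes in grey. Dashed lines mark 2-fold. The 9 members lie between -0.38 and 0.43, inside both lines, with members of each cluster on both sides of 0.

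Members of 1 transcript differed between the pups to unequal extents. Within the chromosome 14 cluster the log2 differences ran from -0.38 (Mir19b-1) to 0.43 (Mir19a), a range of 0.81, and within the Mcm7 cluster from -0.14 (Mir93) to 0.40 (Mir106b), a range of 0.54. For comparison, detected miRNA genes on the same strand with neighbours within 10 kb were grouped, which gave 16 clusters with at least 3 genes. The median range of these was 0.79, from 0.39 to 2.19. The 2 clusters lay near the middle and in the lower part of this distribution, at positions 9 and 5 from the smallest. Levels within the chromosome 14 cluster spanned 942-fold from Mir17 to Mir19b-1, position 4 from the widest, and in the Mcm7 cluster 11.7-fold, position 12. The median over the 16 clusters was 64.8-fold. Both values of the chromosome 14 cluster rest on the miR-19 genes. Without Mir19b-1, which did not pass the test and whose level is uncertain, its levels spanned 259-fold and its differences 0.72. Without Mir19a as well, the other 4 members spanned 7.40-fold and their differences 0.37 (alternatives chosen after seeing the data). These 2 genes had the lowest levels of the cluster and the lowest and highest differences, so leaving them out had to narrow both ranges. The other clusters kept their extreme genes, so no position among the 16 is given for the narrowed ranges. By summed mean level the chromosome 14 cluster was the third and the Mcm7 cluster the fourth. These clusters differ in their number of genes and in their counts, so the positions are a description.

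**Figure D4:**
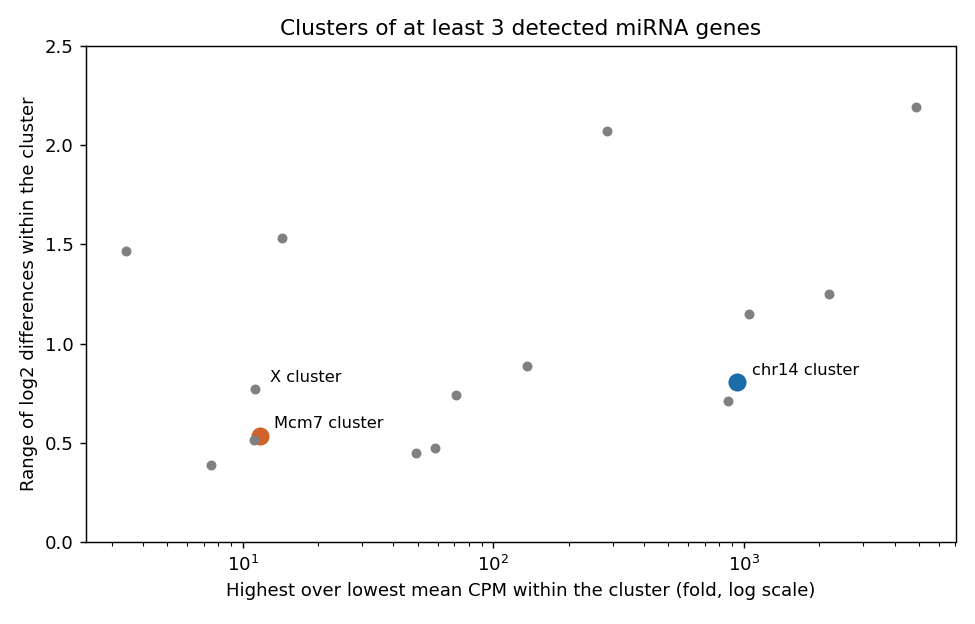
Highest over lowest mean CPM within a cluster (fold, log scale) against the range of log2 differences of pup 3 minus pup 1 within it, for the 16 clusters of at least 3 detected miRNA genes. The chromosome 14 cluster (942-fold, 0.81) has a wide span of levels and a middling range of differences. The Mcm7 cluster (11.7-fold, 0.54) is narrow in both. Without Mir19a and Mir19b-1, which hold ends of both ranges, the chromosome 14 values are 7.40-fold and 0.37, narrower by construction.

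Lists of miRNAs with opposed or related roles give the members a setting. Reads that match several places are left out of these counts too. Copies of the guides of the listed genes were not searched for, so their sums and detection are uncertain as levels. Of the miRNAs that restrain the cell cycle (the genes of miR-15 and miR-16, of Mir322 and Mir503 and of miR-34), all 10 with an entry were detected, summing to 22667 CPM in pup 1, against 22308 in pup 3, beside 29196 and 25310 CPM for the 9 members. They were led by Mir322 at 8438 ± 1515 CPM and Mir15a at 4054 ± 128 CPM, and 7 of the 10 passed at any fold, 4 higher and 3 lower in pup 3, beside 47.6% of tested genes. Of these 10, Mir16-2 was called at 2-fold, lower in pup 3 (chosen after its value was seen), at 668 and 241 CPM. The miR-302 and miR-290 genes of embryonic stem cells, whose seeds resemble that of miR-17, summed to 310 and 391 CPM, with 5 of 10 detected and 6 tested. Of these 6, 4 passed at any fold, all 4 higher in pup 3 on TMM scaling, beside 23.8% of tested genes that passed as higher. Mir302a led them at 133 ± 32.2 CPM, less than the level of 7 of the 9 members.

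Of other growth-promoting miRNAs all 5 were detected, led by Mir21a at 5078 ± 99.4 CPM and Mir130b at 3279 ± 75.1 CPM. Of these 5, 4 passed at any fold, 2 in each direction, beside 47.6% of tested genes, 23.8% in each direction. Neuron maturation miRNAs summed to 19930 CPM in pup 1, against 18847 in pup 3, without any reads that match several places. By these counts they were led by Mir137 at 11351 ± 16.5 CPM and Mir128-1 at 3587 ± 457 CPM. Of their 9 genes with an entry 6 were detected. Of the 9 tested 6 passed at any fold, 2 higher and 4 lower in pup 3, beside the same 47.6% of tested genes. At 2-fold 2 of these 9 were called, both lower in pup 3, beside 5.71% of tested genes called lower. Mir137, which rises as neurons mature, was close to Mir17 in pup 1 (11363 and 11119 CPM) and above it in pup 3 (11340 and 8243 CPM). The median log2 difference of tested genes was -0.02 for the cell cycle list, 0.43 for the embryonic stem cell list, -0.05 for the growth-promoting list, -0.12 for the neuron list and -0.05 for the members, beside -0.02 over all 508 tested genes.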

How the data were processed

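MicroRNA-seq libraries of 2 hindbrains were used, 1 per pup. For each library the authors deposited a table of raw read counts by miRNA gene, as whole numbers, on assembly mm10 and annotation M4 per the text files deposited beside them. The tables were not normalized or pooled. The sources used here do not name the aligner or counter. Own-strand counts were used. Rows that name no gene (in pup 1 and pup 3, 17.7% and 13.9% of reads unmapped, 37.9% and 39.4% matching several places, 3.91% and 3.12% outside features of that strand) stayed out of totals. IDs were matched without version to GENCODE M21 (1894 of 1973). Per gene, SciPy 1.17.1 gave an exact binomial test of both counts against TMM effective sizes (edgeR 4.0.16) for genes with 10 or more counts, Benjamini-Hochberg adjusted; calls needed an adjusted p under 0.05 and 2-fold. The edgeR quasi-likelihood test needs residual degrees of freedom, which 2 libraries split against each other do not leave. The calling step was tested on simulated data with counting error alone, so that test does not cover variation between pups. Alternatives covered strand, scaling (DESeq2 1.42.0 size factors, library totals), filters, pseudocount, detection level and each replicate left out. Members and lists were chosen with earlier results of these data known. Named genes were the 9 members, their paralogs, detected genes sharing a guide seed, and the 2 highest of each list that is described; Mir16-1, Mir16-2 and Mir15b were named after their values were seen.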

Additional observations from a re-analysis of the deposited data

How the results depend on the processing

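No paired analysis was possible because both libraries belong to 1 group. Of 139 alternative values 118 kept direction and side of the threshold, moved by at most 1 SD of the pups or, for counts of genes, stayed within 1.5 times. With 2 pups, a level, share or ratio without 1 replicate always lies within 1 SD of the mean. Those alternatives are among the 118 by construction and do not show stability. Detected genes ranged from 307 (10 CPM) to 471 (5 counts), beside 407. Over all reads in the tables instead of gene counts, the chromosome 14 cluster took 0.712% and the Mcm7 cluster 0.430%, by construction of a larger denominator. With counts on any strand the Mcm7 share was 0.990%, also through the denominator, since the members had 0 opposite-strand counts. With 100 or more counts required, 18 genes were called at 2-fold in place of 34, from fewer genes tested, and 0 members under each alternative run. Library totals shifted the log2 differences of detected genes by a median of -0.14 and DESeq2 size factors by 0.09. Mir18 turned to -0.064 on totals and Mir20a to 0.039 on size factors. Without replicate 1 or 2, the chromosome 14 share was 1.51% or 1.89%, the Mcm7 share 1.02% or 1.03%, and all 9 members stayed detected. At 10 CPM, 8 members were detected. Without Mir19b-1 the chromosome 14 cluster spanned 259-fold in level and 0.72 in log2 difference, in place of 942-fold and 0.81, and without Mir19a and Mir19b-1 7.40-fold and 0.37 (both chosen after seeing the data). These ranges are narrower by construction, since the genes left out held ends of them. Depth limits Mir19b-1 most, at 112 counts in both pups together.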

Other observations

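By their counts, Mir16-1 and Mir16-2 were both lower in pup 3 on TMM scaling, while their cluster partners were not. Both genes are from the list of miRNAs that restrain the cell cycle (chosen after the values were seen). Reads that match several places are left out of these counts, and copies of the guides were not searched for. The values are therefore uncertain as levels, and whether the level of the guides differed was not tested. Mir16-1 had 2489 and 1321 CPM in pup 1 and pup 3, a log2 difference of -0.77 on TMM scaling, and Mir16-2 had 668 and 241 CPM, a difference of -1.33. Mir15a, the partner of Mir16-1, stood at 0.07 and Mir15b, the partner of Mir16-2, at 0.10. The differences within these 2 pairs were wider than any within the Mcm7 cluster, where Mir93 and Mir106b were 0.54 apart.

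Among genes outside the clusters that share a seed with the members, Mir32 had the largest difference of the detected ones, 0.88 higher in pup 3 on the log2 scale (822 and 1753 counts). Mir19b-2, at 26 and 4 counts and so not detected, was called 2-fold lower in pup 3 (exact binomial test, adjusted p = 2.33e-05), while Mir19b-1, with the same guide, was not called. Reads that stay within the stretch these genes share, which spans the guide, are in neither count. Both counts are therefore uncertain as levels, and whether the level of the guide differed was not tested.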
